A study of Homo sapiens with 21 samples.

Results

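The thioredoxin and peroxiredoxin system was followed as 10 genes chosen by name, of 23368 genes in the table: the thioredoxins TXN and TXN2, the thioredoxin reductase TXNRD1, the sulfiredoxin SRXN1 and the peroxiredoxins PRDX1, PRDX2, PRDX3, PRDX4, PRDX5 and PRDX6. All 10 were among the 19694 genes whose value varied between libraries, and no filter on low values was applied to them. RNA-seq came from hTERT-HPNE, a non-transformed human pancreatic line immortalized with telomerase, from 21 libraries. Each of 7 conditions had 3 biological replicates: no treatment, 300 µM H2O2 for 4, 8 or 24 h, and 400 ng/ml neocarzinostatin (NCS), a drug that breaks both strands of DNA, for 4, 8 or 24 h. Medium containing EGF and puromycin was shared by all groups according to the labels. It was renewed when H2O2 or NCS was added, and no untreated cells were collected at 4, 8 or 24 h, so that in a comparison with untreated cells the effect of the treatment and that of time in fresh medium cannot be told apart. H2O2 and NCS at the same time share that history. All groups come from 1 cell line, and each agent was given at a single dose.

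The deposited values are rLog values, log2-scaled read counts that the authors divided by library size factors and shrank towards each gene's mean. A difference of 1 is a 2-fold change, and differences between groups are smaller than in the unshrunken counts. The values are not corrected for gene length, so levels are compared here for 1 gene across groups and never between genes. The depth of each library is unknown from these values. Library medians lay between 7.14 and 7.19, and each of the 21 libraries was nearest to a library of its own group. Distances within a group ran from 8.94 to 15.1, and the widest was in the H2O2 8 h group, where replicate 2 stood apart from the other two; results at 8 h of H2O2 are therefore also given without it. Markers of the labelled line were mixed: vimentin (VIM, median 17.05), nestin (NES, 12.06), KRT18 (11.66), KRT8 (7.90) and SOX9 (6.07) were measured, KRT19 was close to 0 (0.60), and PDX1 was listed at 0 in every library. Of 10 markers of other cell types, INS, PRSS1 and HBB were at 0 in every library and 6 did not exceed 2.42, while CD68, a lysosomal gene, lay between 9.93 and 10.57.

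Thioredoxins are small proteins that reduce disulfide bonds in other proteins through a pair of cysteines. TXN works in the cytosol and nucleus and TXN2 in mitochondria. Oxidized thioredoxin is reduced with NADPH by thioredoxin reductases, selenoproteins of which TXNRD1 is the cytosolic form. Peroxiredoxins reduce H2O2 and other peroxides and most of them pass the oxidation on to thioredoxin, while PRDX6 is recycled with glutathione. At high peroxide the reactive cysteine of peroxiredoxins can be over-oxidized to sulfinic acid, and sulfiredoxin, encoded by SRXN1, reverses this in some of them. PRDX1, PRDX2 and PRDX6 are mainly cytosolic, PRDX3 is mitochondrial, PRDX4 resides in the endoplasmic reticulum, and PRDX5 is found in mitochondria, peroxisomes and cytosol. TXN, TXNRD1, SRXN1 and PRDX1 are textbook targets of the transcription factor NRF2, which binds antioxidant response elements.

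Because NRF2 acts through such elements, the sequence just upstream of the start site is shown for the 3 genes that were higher after H2O2 than after NCS at all 3 times, TXN, TXNRD1 and SRXN1. RefSeq promoter windows (build GRCh38.p14) were found for 7 of the 10 genes, and 9 windows in all because TXNRD1 and PRDX5 have several start sites. Only the 250 bases before the start site were searched, on both strands, for TGACNNNGC, the core of the antioxidant response element, and for TGANTCA, an AP-1 type site. The element core was present in 10.9% of all 35116 windows and the AP-1 type site in 6.57%. Among the 9 windows of the system the core occurred in 2, both of TXNRD1, at bases -99 to -91 of the first window on the given strand and at bases -102 to -94 of the second on the opposite strand. The AP-1 type site occurred in 0 of the 9. These are matches of letters in a short window and say nothing about elements farther away. The windows are given 5′ to 3′ on the strand of the gene, each in GRCh38.p14 coordinates, with the match to the element core in capitals.
TXNRD1, upstream of the first start site, chr12:104215529-104215778 on the plus strand: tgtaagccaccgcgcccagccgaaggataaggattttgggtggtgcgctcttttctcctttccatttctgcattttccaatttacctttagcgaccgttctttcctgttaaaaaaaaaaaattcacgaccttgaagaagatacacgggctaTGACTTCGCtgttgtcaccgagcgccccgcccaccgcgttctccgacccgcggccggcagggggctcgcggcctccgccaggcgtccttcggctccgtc
TXNRD1, upstream of the second start site, chr12:104286782-104287031 on the plus strand: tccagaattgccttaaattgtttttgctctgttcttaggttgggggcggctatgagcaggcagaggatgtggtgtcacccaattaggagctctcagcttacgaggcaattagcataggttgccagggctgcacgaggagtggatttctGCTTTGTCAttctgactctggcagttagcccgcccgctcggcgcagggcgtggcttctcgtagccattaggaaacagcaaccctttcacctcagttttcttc
SRXN1, chr20:653201-653450 on the minus strand: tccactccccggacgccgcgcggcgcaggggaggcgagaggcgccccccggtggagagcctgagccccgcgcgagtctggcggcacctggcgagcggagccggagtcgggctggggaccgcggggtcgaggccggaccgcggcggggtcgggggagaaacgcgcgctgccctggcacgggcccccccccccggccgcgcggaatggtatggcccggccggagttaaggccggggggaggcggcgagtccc
TXN, chr9:110256508-110256757 on the minus strand: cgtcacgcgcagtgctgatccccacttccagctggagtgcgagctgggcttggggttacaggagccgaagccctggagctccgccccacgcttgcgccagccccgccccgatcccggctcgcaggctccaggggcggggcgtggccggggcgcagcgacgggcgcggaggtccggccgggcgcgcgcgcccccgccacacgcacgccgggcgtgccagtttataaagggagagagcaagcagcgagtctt

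To determine how the system responded to each stress, all groups were fitted together in limma, and a gene was called at a Benjamini-Hochberg adjusted p under 0.05 over all 19694 genes. These include genes with a mean value under 5, while no member was under 10.53 in any library. Shares and ranks are given over all of them, not among genes of like value. After H2O2, 9 of the 10 genes rose at 4 h and 0 fell, where 26.2% of all genes rose and 19.7% fell; TXN2 was the exception, and 0 members were lower at an unadjusted p under 0.05. At 8 h of H2O2, 6 rose and 2 fell (18.8% and 18.6% of all genes), and at 24 h, 6 rose and 1 fell (20.2% and 19.9%). After NCS, 1 gene, PRDX2, rose at 4 h and 0 fell (7.47% and 9.72% of all genes), with 0 lower at an unadjusted p under 0.05. At 8 h of NCS, 1 rose, TXN2, and 0 fell (10.5% and 13.3%), while TXNRD1 and PRDX3 were lower at an unadjusted p under 0.05. At 24 h of NCS, 5 rose and 2 fell (19.6% and 18.4%). The median difference of the 10 genes from untreated cells at the 3 times was 0.13, 0.09 and 0.15 after H2O2 and 0.03, 0.03 and 0.07 after NCS, beside medians within 0.01 of 0 over all genes. The largest responses belonged to TXNRD1 and SRXN1, and those of the other members were mostly under 0.25 in log2 units.

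**Figure D1:**
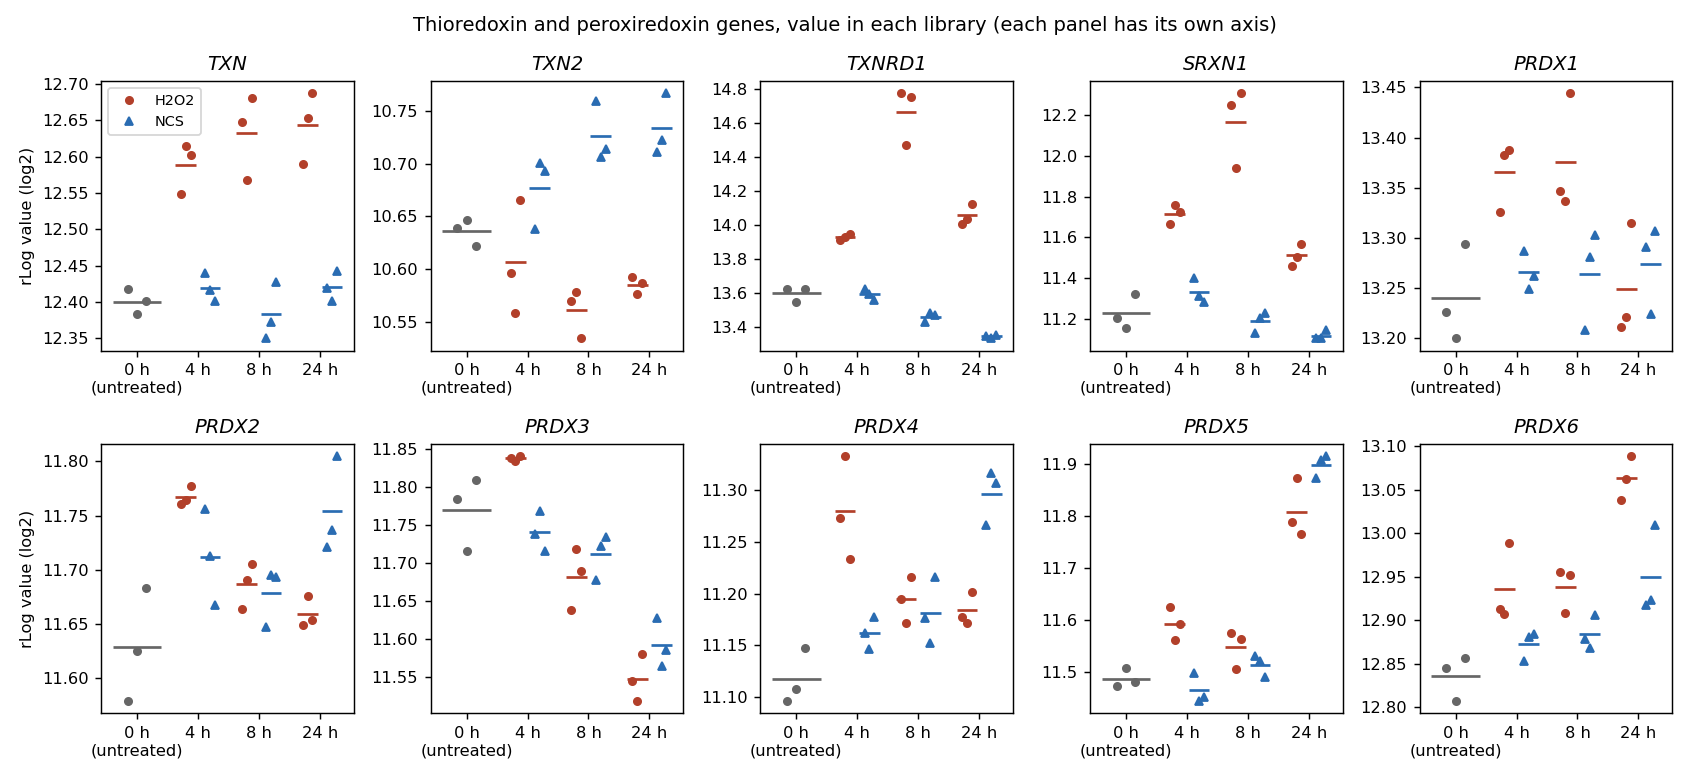
The rLog value (log2) of each of the 10 genes is plotted for every library against the time after treatment, with grey points for untreated cells, red circles for H2O2, blue triangles for NCS and a horizontal bar for the mean of each group of 3; each panel has its own vertical axis. TXNRD1 and SRXN1 peaked at 8 h of H2O2 (means 14.66 and 12.16), while PRDX5 was high at 24 h of both treatments (means 11.81 and 11.90).

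TXNRD1, the enzyme that returns thioredoxin to its reduced form, had the widest range of group means, 1.32, wider than that of 98.6% of all genes. The 3 untreated libraries had values of 13.63, 13.55 and 13.62. After 4 h of H2O2 they were 13.91, 13.93 and 13.95, after 8 h 14.77, 14.47 and 14.75, and after 24 h 14.01, 14.04 and 14.12. Every H2O2 library was above every untreated library, the 8 h group was the highest, and the 3 H2O2 groups did not overlap one another. The rise over untreated cells was 0.33 ± 0.054 (SE) at 4 h (adjusted p = 6.13e-05). It reached 1.06 ± 0.054 at 8 h (adjusted p = 9.27e-11), a 2.09-fold level, and stood at 0.46 ± 0.054 at 24 h (adjusted p = 1.19e-06). TXNRD1 ranked 51 among 19694 genes by the difference at 8 h. TXNRD1 was the only member to change by more than 1 log2 unit in any comparison: at 8 h of H2O2 against untreated cells, where 0.320% of all genes rose by that much, and against NCS at 8 h, where 0.157% were higher by that much.

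After NCS, TXNRD1 fell at 24 h. The libraries of 4 h had values of 13.62, 13.60 and 13.56, those of 8 h 13.43, 13.48 and 13.47, and those of 24 h 13.35, 13.34 and 13.36. The 4 h libraries overlapped the untreated ones, and those of 8 and 24 h lay below them. The difference was -0.14 (95% CI -0.25 to -0.03; adjusted p = 0.0725) at 8 h and fell by 0.25 ± 0.054 (SE; adjusted p = 0.000839) at 24 h. The order of its group means ran from H2O2 8 h through H2O2 24 h and H2O2 4 h to untreated cells and then NCS 4 h, 8 h and 24 h, and of the 6 neighbouring pairs in this order only untreated cells and NCS 4 h overlapped. The value at 8 h of NCS passed the threshold when only the groups compared were fitted (adjusted p = 0.0162), when library medians were aligned (adjusted p = 0.00547), under quantile normalization (adjusted p = 0.0497) and when genes with a mean value under 5 were left out (adjusted p = 0.0153).

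SRXN1, which repairs some over-oxidized peroxiredoxins, had a range of group means of 1.04, wider than that of 97.3% of all genes. Untreated libraries had values of 11.21, 11.16 and 11.32. H2O2 libraries had values of 11.66, 11.76 and 11.72 after 4 h, 12.25, 11.94 and 12.30 after 8 h, and 11.46, 11.51 and 11.57 after 24 h. All were above the untreated values, and the order of the 3 times, with 4 h above 24 h, differed from that of TXNRD1. The rise was 0.49 ± 0.067 (SE) at 4 h (adjusted p = 9.13e-06). It was 0.93 ± 0.067 after 8 h (adjusted p = 4.97e-09), a 1.91-fold level, and 0.28 ± 0.067 (adjusted p = 0.00202) after 24 h. After NCS the values were 11.40, 11.32 and 11.29, then 11.13, 11.21 and 11.23, then 11.11, 11.11 and 11.14. Differences of 0.10 (95% CI -0.04 to 0.25), -0.04 (-0.18 to 0.10) and -0.11 (-0.25 to 0.03) from untreated cells did not pass the test (adjusted p = 0.373, 0.836 and 0.234).

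The H2O2 8 h library that stood apart was the lowest of its group for both genes, at 14.47 for TXNRD1 and 11.94 for SRXN1. Without it the rise at 8 h was 1.16 (adjusted p = 1.08e-14) for TXNRD1 and 1.05 (adjusted p = 8.7e-12) for SRXN1, so that SRXN1 also exceeded 1 log2 unit. Of the other members, PRDX5 was called at 8 h only without it (0.08, adjusted p = 0.027), and the 8 calls made with it remained. Within the H2O2 series, TXNRD1 rose by 0.74 from 4 to 8 h (adjusted p = 4.73e-09) and fell by 0.61 from 8 to 24 h (adjusted p = 3.7e-08). SRXN1 rose by 0.45 (adjusted p = 2.4e-05) and then fell by 0.65 (adjusted p = 2.46e-07). All 3 libraries of each time were apart from those of the next in these 4 steps.

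TXN, the cytosolic thioredoxin, rose after H2O2 at each time. Untreated libraries had values of 12.42, 12.38 and 12.40, and H2O2 libraries 12.55, 12.62 and 12.60 at 4 h, then 12.65, 12.57 and 12.68 at 8 h, then 12.59, 12.65 and 12.69 at 24 h. The 9 H2O2 libraries lay above the 12 others. The rise was 0.19 ± 0.029 (SE; adjusted p = 3.7e-05), 0.23 ± 0.029 (adjusted p = 4.44e-06) and 0.24 ± 0.029 (adjusted p = 1.62e-06), and neither step between times passed the test (adjusted p = 0.258 and 0.838). Without replicate 2 of the H2O2 8 h group, the step from 4 to 8 h was a rise of 0.08 (adjusted p = 0.0392). Under quantile normalization both steps were rises of 0.07 (adjusted p = 0.0414 and 0.0415). NCS libraries ran from 12.35 to 12.44 and overlapped the untreated ones at every time, with differences of 0.02 (95% CI -0.04 to 0.08), -0.02 (-0.08 to 0.04) and 0.02 (-0.04 to 0.08).

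TXN2, the mitochondrial thioredoxin, separated the treatments in the opposite direction. Its values were 10.64, 10.65 and 10.62 in untreated cells, from 10.53 to 10.67 over the 9 H2O2 libraries and from 10.64 to 10.77 over the 9 NCS libraries. After 8 h of H2O2 it fell by 0.08 ± 0.026 (SE; adjusted p = 0.0311), and the differences of -0.03 after 4 h and -0.05 after 24 h did not pass the test (adjusted p = 0.404 and 0.15). It rose by 0.09 after 8 h of NCS (adjusted p = 0.0164) and by 0.10 after 24 h (adjusted p = 0.00581), and differed by 0.04 after 4 h (adjusted p = 0.37). The fall at 8 h of H2O2 did not pass after either other scaling of the libraries or without any 1 of untreated replicates 1 and 2 and H2O2 8 h replicates 1 and 3 (adjusted p from 0.0513 to 0.125), and under quantile normalization the differences at 4 and 24 h of H2O2 were above 0. When only the groups compared were fitted, the fall at 8 h was lost (adjusted p = 0.0607), while at 24 h the difference of -0.05 passed (adjusted p = 0.0481). The rise at 8 h of NCS did not pass without untreated replicate 3 (0.08, adjusted p = 0.0587), without NCS 8 h replicate 1 (0.07, adjusted p = 0.0857) or with library medians aligned (adjusted p = 0.0966).

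**Figure D2:**
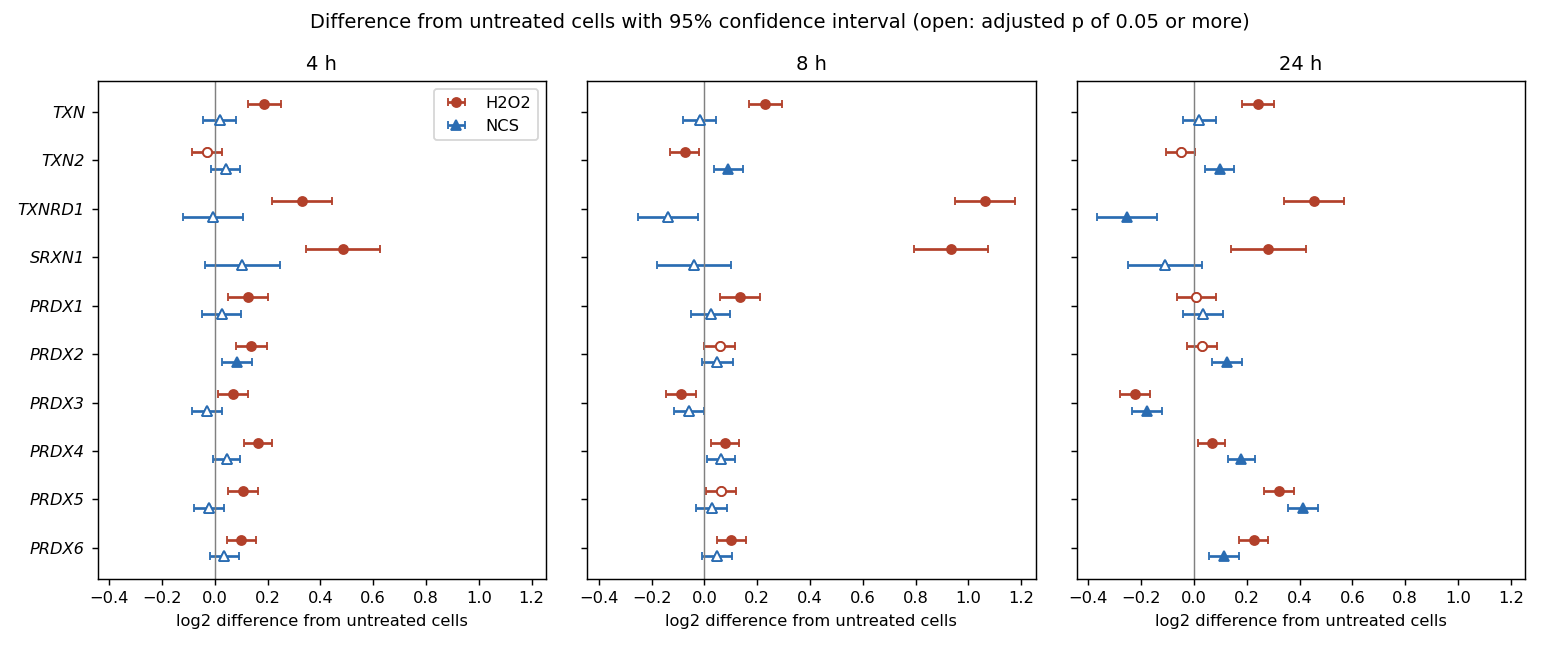
The log2 difference of each gene from untreated cells is plotted with its 95% confidence interval at 4, 8 and 24 h, in red for H2O2 and blue for NCS, with open symbols where the adjusted p was 0.05 or more. TXNRD1 and SRXN1 reached 1.06 and 0.93 at 8 h of H2O2, and PRDX5 and PRDX3 moved in opposite directions at 24 h of both treatments.

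The 6 peroxiredoxins rose together at 4 h of H2O2, by amounts between 0.07 for PRDX3 and 0.16 for PRDX4. All 3 H2O2 libraries lay above all 3 untreated libraries for each of the 6, which was also so for TXN, TXNRD1 and SRXN1; 9 members were thus apart at 4 h, where 49.5% of all genes were. At 8 and 24 h of H2O2, 7 and 8 members were apart, beside 42.0% and 59.7% of all genes. After NCS, 0, 4 and 8 members were apart from untreated cells at 4, 8 and 24 h, beside 30.0%, 33.8% and 44.5%. At 4 h of NCS, PRDX2 was the only peroxiredoxin called, with a rise of 0.08 (adjusted p = 0.0448) and libraries that overlapped. It was lost without any 1 of untreated replicates 1 and 2 and NCS 4 h replicates 1 and 2 (adjusted p from 0.104 to 0.238), when only the groups compared were fitted (adjusted p = 0.182) and with library medians aligned (adjusted p = 0.129). The rises of PRDX1, PRDX3 and PRDX6 at 4 h of H2O2 were no longer called under quantile normalization (adjusted p up to 0.0613, 0.251 and 0.177 over all alternatives), while those of PRDX2, PRDX4 and PRDX5 were called in every alternative.

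PRDX1, a cytosolic peroxiredoxin, rose early after H2O2. Its values were 13.23, 13.20 and 13.29 in untreated cells and, after 4 h of H2O2 13.33, 13.38 and 13.39, after 8 h 13.35, 13.34 and 13.44, and after 24 h 13.21, 13.22 and 13.31. The 4 and 8 h libraries lay above the untreated ones, and those of 24 h overlapped them. It rose by 0.13 (adjusted p = 0.0073) and 0.14 (adjusted p = 0.00507, and 0.0515 when only the groups compared were fitted), differed by 0.01 at 24 h (95% CI -0.07 to 0.08), and fell by 0.13 from 8 to 24 h (adjusted p = 0.00707). Without H2O2 8 h replicate 3 this step was -0.09 (adjusted p = 0.0528), and it also did not pass when only the groups compared were fitted (adjusted p = 0.0598) or under quantile normalization (-0.07, adjusted p = 0.165). NCS libraries ran from 13.21 to 13.31, and no NCS difference passed the test (adjusted p = 0.793, 0.788 and 0.559).

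PRDX2, also cytosolic, was highest at 4 h of H2O2 and 24 h of NCS. The values were 11.58, 11.62 and 11.68 in untreated cells, 11.76, 11.76 and 11.78 at 4 h of H2O2, and 11.72, 11.74 and 11.80 at 24 h of NCS. Both groups lay above the untreated libraries. The rise was 0.14 ± 0.028 (SE; adjusted p = 0.000443) at 4 h of H2O2 and 0.13 ± 0.028 (adjusted p = 0.00113) at 24 h of NCS, and PRDX2 fell by 0.08 between 4 and 8 h of H2O2 (adjusted p = 0.0229), a step that did not pass without H2O2 4 h replicate 3 (adjusted p = 0.0658) or H2O2 8 h replicate 1 (adjusted p = 0.086). Every pair of neighbours in the order of its 7 group means overlapped.

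PRDX3, the mitochondrial peroxiredoxin, was the only peroxiredoxin that fell below untreated cells, at 24 h of both treatments. Its values were 11.78, 11.72 and 11.81 in untreated cells, 11.54, 11.52 and 11.58 at 24 h of H2O2, and 11.63, 11.56 and 11.59 at 24 h of NCS. All 6 of these treated libraries lay below the untreated ones. The difference was -0.22 ± 0.027 (SE; adjusted p = 1.59e-06) after H2O2 and -0.18 ± 0.027 (adjusted p = 2.61e-05) after NCS. H2O2 libraries stepped down from 4 h (11.84, 11.83 and 11.84) to 8 h (11.64, 11.72 and 11.69), a fall of 0.16 (adjusted p = 0.000106), and by another 0.13 to 24 h (adjusted p = 0.000447). The difference from untreated cells was 0.07 and -0.09 at 4 and 8 h of H2O2 (adjusted p = 0.0465 and 0.0143). The first was lost without any 1 of untreated replicates 1 and 2 and the 3 H2O2 4 h libraries (adjusted p from 0.0593 to 0.251), and the second without any 1 of untreated replicates 1 and 3 and H2O2 8 h replicate 1 (adjusted p from 0.0517 to 0.0882). Both were lost when only the groups compared were fitted (adjusted p = 0.0916 and 0.116), and the first also with library medians aligned (adjusted p = 0.146), under quantile normalization (adjusted p = 0.0644) and with a replicate block (adjusted p = 0.0533).

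PRDX4, the peroxiredoxin of the endoplasmic reticulum, was highest at 4 h of H2O2 and at 24 h of NCS. The values were 11.10, 11.11 and 11.15 in untreated cells, 11.27, 11.33 and 11.23 at 4 h of H2O2, and 11.27, 11.32 and 11.31 at 24 h of NCS. These 2 groups overlapped each other and lay above the 5 others. The rise was 0.16 ± 0.025 (SE; adjusted p = 2.87e-05) at 4 h of H2O2 and 0.18 ± 0.025 (adjusted p = 8.85e-06) at 24 h of NCS. At 8 and 24 h of H2O2 it was 0.08 (adjusted p = 0.0194) and 0.07 (adjusted p = 0.0403), and both were lost when library medians were aligned (adjusted p = 0.0587 and 0.208), the first also when only the groups compared were fitted (adjusted p = 0.0676). The rise at 8 h was also lost without any 1 of untreated replicates 1 and 2 and H2O2 8 h replicate 3 (adjusted p from 0.0589 to 0.0799), and that at 24 h without untreated replicate 1 or 2 or any H2O2 24 h library (adjusted p from 0.0567 to 0.139).

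PRDX5, found in mitochondria and peroxisomes, had the widest range among the peroxiredoxins, 0.43, and was highest at 24 h of both treatments. The values were 11.47, 11.51 and 11.48 in untreated cells, 11.79, 11.87 and 11.76 at 24 h of H2O2, and 11.87, 11.91 and 11.91 at 24 h of NCS. At 4 and 8 h the highest library of either treatment was at 11.625. PRDX5 already rose by 0.11 at 4 h of H2O2, with an adjusted p of at most 0.0223 over all alternatives. At 8 h of H2O2 it differed by 0.06 (adjusted p = 0.0877). The rise at 24 h was 0.32 ± 0.027 (SE; adjusted p = 1.4e-08) after H2O2 and 0.41 ± 0.027 (adjusted p = 4.65e-10) after NCS, 1.25-fold and 1.33-fold levels. From 8 to 24 h it rose by 0.26 (adjusted p = 3.26e-07) in H2O2 and by 0.39 in NCS.

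PRDX6, which reduces phospholipid peroxides as well as H2O2, rose after H2O2 at all 3 times and most at 24 h. The values were 12.85, 12.81 and 12.86 in untreated cells, 13.04, 13.06 and 13.09 at 24 h of H2O2, and 12.92, 12.92 and 13.01 at 24 h of NCS. The 3 groups did not overlap. The rise at 24 h was 0.23 ± 0.026 (SE; adjusted p = 9.18e-07) after H2O2 and 0.11 ± 0.026 (adjusted p = 0.00169) after NCS, and it was 0.10 at 4 and at 8 h of H2O2 (adjusted p = 0.00443 and 0.00428).

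The time steps summarise these courses. From 4 to 8 h of H2O2, 2 members rose, TXNRD1 and SRXN1, and 3 fell, PRDX2, PRDX3 and PRDX4 (PRDX4 not without H2O2 4 h replicate 2, adjusted p = 0.0644, and PRDX2 and PRDX4 not with library medians aligned, adjusted p = 0.0825 and 0.0652), where 18.0% of all genes rose and 27.7% fell, and from 8 to 24 h, 2 rose and 4 fell (19.4% and 23.2%). In NCS, 0 members changed in either direction from 4 to 8 h, where 6.16% of all genes rose and 7.50% fell. From 8 to 24 h of NCS, 3 rose, PRDX2, PRDX4 and PRDX5, and 1 fell, PRDX3 (14.9% and 15.0%); PRDX2 was not called without any 1 of these 6 libraries but NCS 24 h replicate 1 (adjusted p from 0.0566 to 0.23). In the NCS step from 4 to 8 h, an unadjusted p under 0.05 was reached by TXNRD1 and SRXN1, both lower at 8 h. Fitting only the groups compared gave TXNRD1 an adjusted p of 0.0111 in this step. It ended the calls of PRDX4 from 4 to 8 h of H2O2 (adjusted p = 0.083) and of PRDX2 from 8 to 24 h of NCS (adjusted p = 0.0897), the latter also lost under quantile normalization (adjusted p = 0.0629).

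To separate H2O2 from NCS, the 2 treatments were compared at each time, which also removes the difference in time after fresh medium. At 4 h, 7 members were higher after H2O2 and 1, TXN2, was lower, where 26.3% of all genes were higher and 18.0% lower. At 8 h, 4 were higher and 1 lower (18.7% and 15.4%), and at 24 h, 4 were higher and 4 lower (11.0% and 10.9%). The libraries of the 2 treatments did not overlap for 9, 6 and 8 members at the 3 times, beside 50.1%, 40.8% and 36.5% of all genes. TXN, TXNRD1 and SRXN1 were higher after H2O2 at all 3 times, and TXN2 was lower at all 3. The median difference of the 10 genes was 0.11, 0.04 and -0.03 in the same order.

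TXNRD1 was higher after H2O2 than after NCS by 0.33 ± 0.054 (SE) at 4 h (adjusted p = 5.36e-05). The difference was 1.20 after 8 h (adjusted p = 6.13e-11), a 2.30-fold level, and 0.71 (adjusted p = 2.46e-08) after 24 h. By this difference it ranked 16 of 19694 genes at 8 h and 30 at 24 h. SRXN1 was higher by 0.38 ± 0.067 (adjusted p = 0.00013), 0.97 (adjusted p = 5.64e-09) and 0.39 (adjusted p = 0.000267). Without the H2O2 8 h library that stood apart, the differences at 8 h were 1.30 (adjusted p = 4.69e-15) for TXNRD1 and 1.08 (adjusted p = 1.18e-11) for SRXN1. TXN was higher by 0.17 ± 0.029 (adjusted p = 0.000117), 0.25 (adjusted p = 2.95e-06) and 0.22 (adjusted p = 1.81e-05). TXN2 was lower, with differences of -0.07 ± 0.026 (adjusted p = 0.0364, libraries overlapping), -0.17 (adjusted p = 7.13e-05) and -0.15 (adjusted p = 0.000385). The first did not pass without any 1 of H2O2 4 h replicates 1 and 2 and NCS 4 h replicates 2 and 3 (adjusted p from 0.0967 to 0.192), nor when only the groups compared were fitted (adjusted p = 0.133) or after either other scaling of the libraries (adjusted p = 0.0688 and 0.0727).

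For PRDX4 and PRDX5 the difference changed sign between 4 and 24 h. PRDX3, PRDX4 and PRDX5 were higher after H2O2 at 4 h, by 0.10 (adjusted p = 0.00657), 0.12 (adjusted p = 0.000742) and 0.13 (adjusted p = 0.000805). At 24 h PRDX2, PRDX4 and PRDX5 were lower after H2O2, with differences of -0.09 (adjusted p = 0.0185), -0.11 (adjusted p = 0.0025) and -0.09 (adjusted p = 0.0217). PRDX6 was higher by 0.11 at 24 h (adjusted p = 0.00397). PRDX1 was higher by 0.10 and 0.11 at 4 and 8 h (adjusted p = 0.0294 and 0.0201) and differed by -0.02 at 24 h (95% CI -0.10 to 0.05). At 24 h the calls of PRDX2 and PRDX5 did not hold under quantile normalization, nor did that of PRDX1 at 4 and 8 h. Those of PRDX1 at 8 h and PRDX5 also did not hold when only the groups compared were fitted (adjusted p = 0.0891 and 0.0976). These 4 calls were also lost when single libraries were left out. The adjusted p without any 1 of H2O2 4 h replicates 2 and 3 and NCS 4 h replicates 2 and 3 was up to 0.096 for PRDX1 at 4 h, and without H2O2 8 h replicate 3 or NCS 8 h replicate 1 up to 0.126 at 8 h. It was up to 0.11 for PRDX2 without any 1 of H2O2 24 h replicates 1 and 3 and NCS 24 h replicate 3, and up to 0.12 for PRDX5 without any 1 of H2O2 24 h replicates 1 and 3 and NCS 24 h replicates 2 and 3.

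**Figure D3:**
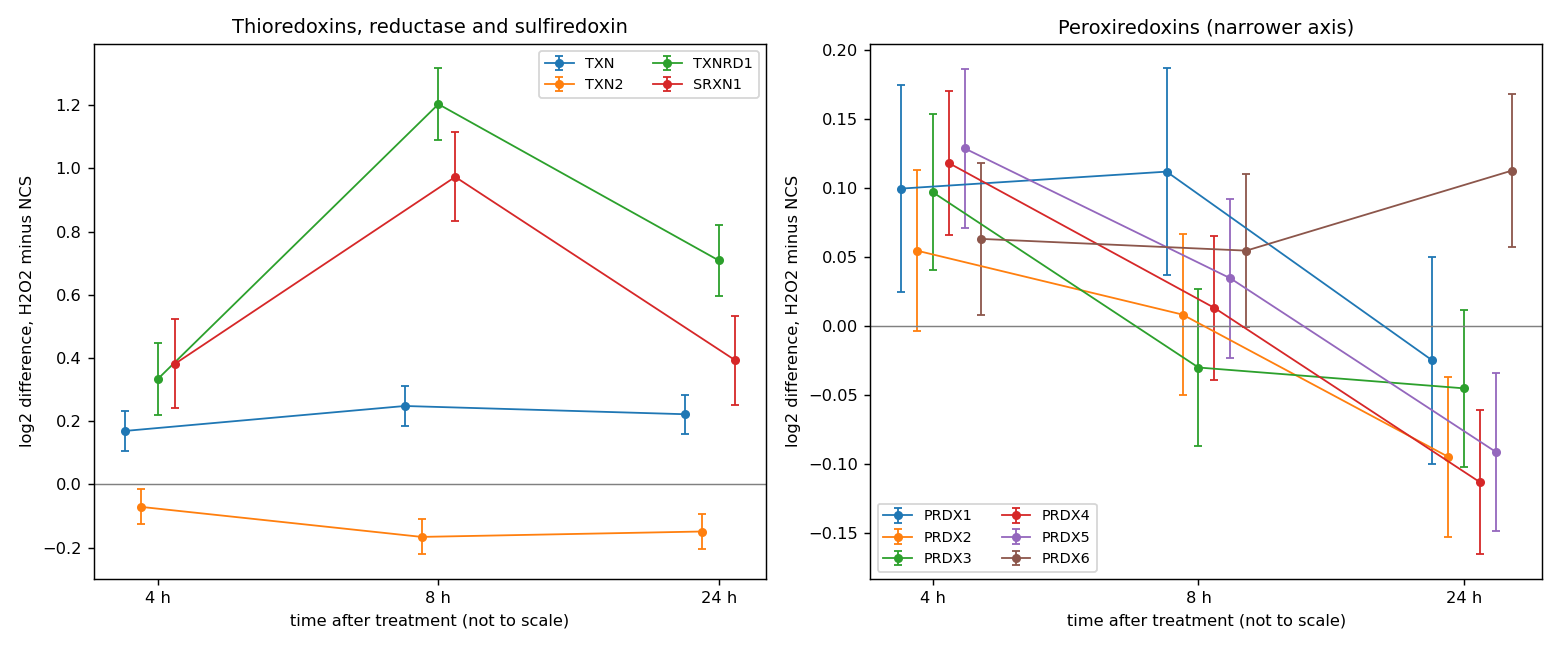
The log2 difference of H2O2 minus NCS is plotted at 4, 8 and 24 h with its 95% confidence interval, on the left for TXN, TXN2, TXNRD1 and SRXN1 and on the right, with a narrower vertical axis, for the 6 peroxiredoxins; the time axis is not to scale. TXNRD1 and SRXN1 peaked at 8 h (1.20 and 0.97), and PRDX4 and PRDX5 went from above 0 at 4 h (0.12 and 0.13) to below 0 at 24 h (-0.11 and -0.09).

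The change of the H2O2 minus NCS difference with time was tested as an interaction. From 4 to 8 h it rose in 2 members and fell in 2 (14.7% and 18.0% of all genes), and from 4 to 24 h it rose in 1 and fell in 4 (16.6% and 22.7%). It grew from 4 to 8 h by 0.87 ± 0.076 (SE; adjusted p = 1.44e-07) for TXNRD1 and by 0.59 ± 0.095 (adjusted p = 0.000102) for SRXN1. From 4 to 24 h it was still 0.37 larger for TXNRD1 (adjusted p = 0.000705), while for SRXN1 the change was 0.01 (95% CI -0.19 to 0.21). For TXN neither change passed the test (adjusted p = 0.163 and 0.344), although that to 8 h was 0.11 (adjusted p = 0.0305) without replicate 2 of the H2O2 8 h group and that to 24 h was 0.15 (adjusted p = 0.00592), against 0.05 as deposited, under quantile normalization. From 4 to 24 h the difference dropped by 0.23 for PRDX4 (adjusted p = 4.17e-05), by 0.22 for PRDX5 (adjusted p = 0.000182), by 0.15 for PRDX2 (adjusted p = 0.00514) and by 0.14 for PRDX3 (adjusted p = 0.00609).

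Genes that act beside the system were read from lists, which were chosen with earlier results of these data known. Their counts beside the shares of all genes are descriptions and not tests of the lists. No filter on low values was applied to the lists. Their counts therefore include genes of low value, such as AKR1C1, TXNDC5 and GPX2, with untreated means of 2.49, 0.23 and 0.73. NRF2 targets outside the system were represented by 16 genes, of which 11 rose and 1 fell at 4 h of H2O2, and 14 rose and 0 fell both at 8 h and at 24 h. The shares of all genes were 26.2% and 19.7%, 18.8% and 18.6%, and 20.2% and 19.9%. The median difference of the 16 from untreated cells was 0.11, 0.38 and 0.44. After NCS, 7 rose and 1 fell at 4 h (7.47% and 9.72% of all genes), and 4 rose and 1 fell at 8 h (10.5% and 13.3%). At 24 h of NCS, 5 rose and 2 fell (19.6% and 18.4%). The medians at the 3 times of NCS were 0.07, 0.03 and 0.04. HMOX1, heme oxygenase, rose by 3.44 (adjusted p = 3.69e-18), 2.50 and 0.76 at the 3 times of H2O2, and by 0.88 at 4 h of NCS. It also rose by 0.45 at 8 h of NCS (adjusted p = 4.34e-06) and by 0.27 at 24 h of NCS (adjusted p = 0.000539). At 8 h of H2O2, OSGIN1 rose by 1.13 (adjusted p = 1.14e-09), SLC7A11, the cystine transporter, by 0.96, and GCLM and GCLC, the subunits of the first enzyme of glutathione synthesis, by 0.82 and 0.57. OSGIN1 also rose by 0.59 at 4 h of NCS (adjusted p = 8.81e-06) and by 0.48 at 8 h of NCS (adjusted p = 4.89e-05). Its difference of 0.16 at 24 h of NCS did not pass the test (adjusted p = 0.105). NQO1, a quinone reductase, and the ferritin subunits FTH1 and FTL were highest later, at 24 h of H2O2, with rises of 0.78, 0.85 and 0.69. Against NCS, 7 of the 16 were higher and 2 lower after H2O2 at 4 h (26.3% and 18.0% of all genes). At 8 h, 15 were higher and 0 lower (18.7% and 15.4%), and at 24 h, 14 were higher and 1 lower (11.0% and 10.9%).

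The list of thioredoxin relatives held proteins with the same fold, and also further thioredoxin reductases and TXNIP, a regulator of thioredoxin. Of 22 relatives, 11 rose and 4 fell at 4 h of H2O2, 4 rose and 4 fell at 8 h, and 4 rose and 8 fell at 24 h. The shares of all genes that rose and fell were 26.2% and 19.7% at 4 h, then 18.8% and 18.6%, then 20.2% and 19.9%. TXNIP, the protein that binds and inhibits thioredoxin, fell by 1.19 after 4 h of H2O2 (adjusted p = 1.74e-11) and by 0.44 after 8 h (adjusted p = 7.16e-06), and rose by 0.48 after 24 h (adjusted p = 1.59e-06). After NCS it fell by 0.50 at 4 h (adjusted p = 5.71e-06), differed by -0.13 at 8 h (adjusted p = 0.119) and rose by 0.58 at 24 h (adjusted p = 1.76e-07). It was lower after H2O2 than after NCS by 0.69 at 4 h, a difference of -0.69 (adjusted p = 2.31e-08), when TXN was higher. GLRX, the cytosolic glutaredoxin that works with glutathione, rose by 0.97 at 24 h of H2O2 (adjusted p = 1.22e-12) and by 0.56 at 24 h of NCS (adjusted p = 3.39e-09). TXNL4B, a thioredoxin-like protein of the spliceosome, rose by 0.52 at 8 h of H2O2 (adjusted p = 4.14e-08), and TXNDC16 fell by 0.55 at 24 h of NCS (adjusted p = 6.15e-07).

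Of 8 measured clients of thioredoxin, 6 fell and 2 rose at 24 h of H2O2 (19.9% and 20.2% of all genes), and 3 fell and 2 rose at 24 h of NCS (18.4% and 19.6%). RRM1 and RRM2, the subunits of ribonucleotide reductase used in S phase, fell by 1.06 and 1.80 at 24 h of H2O2 and by 1.08 and 1.75 at 24 h of NCS. RRM2B, the p53-induced subunit, rose by 0.88 and 0.84 at the same times. MAP3K5, the kinase ASK1 that thioredoxin restrains, fell by 0.58 at 8 h of H2O2 (adjusted p = 1.15e-07), and was at -0.30 at 8 h of NCS (adjusted p = 0.000384). The 5 proliferation genes fell in every comparison with untreated cells except 1 at 4 h of H2O2, with medians from -0.39 at 4 h to -1.84 at 24 h of H2O2 and from -0.99 to -2.32 after NCS. Their part in the values of the system was not tested.

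Peroxidases outside the peroxiredoxins include the glutathione peroxidases. Of 7, 4 rose and 1 fell at 24 h of H2O2 (20.2% and 19.9% of all genes), and 4 rose and 0 fell at 24 h of NCS (19.6% and 18.4%). GPX1, the cytosolic glutathione peroxidase, rose by 0.53 (adjusted p = 3.42e-10) and 0.58 (adjusted p = 1.04e-10), and its H2O2 minus NCS difference was -0.05 (adjusted p = 0.383). GPX3, a secreted form, rose by 0.52 and 0.59. TXNRD1 and selenoprotein peroxidases such as GPX1 contain selenocysteine, and a list of 6 genes linked by name to its synthesis or insertion was read. Whether each of the 6 is needed for these proteins was not tested. Of the 6, 2 rose and 2 fell at 8 h of H2O2 (18.8% and 18.6% of all genes), and 3 rose and 1 fell at 24 h (20.2% and 19.9%). The 1 that fell at 24 h of H2O2 was SEPHS1, by 0.47 (adjusted p = 6.94e-10). SEPHS1 also fell by 0.51 at 24 h of NCS (adjusted p = 2.36e-10). At 4 h of H2O2, SEPHS1 and EEFSEC, also of the 6, fell by 0.12 (adjusted p = 0.00605) and 0.20 (adjusted p = 0.00196). SECISBP2, another of the 6, rose by 0.09 at that time (adjusted p = 0.0348). Of all genes, 26.2% rose and 19.7% fell at 4 h. EEFSEC fell by 0.41 at 8 h of H2O2 (adjusted p = 1.22e-06). Counts of the 6 after NCS are not given here. SEPHS2, also of the 6, fell by 0.09 at 4 h of H2O2 (adjusted p = 0.0243). It rose by 0.24 at 8 h of H2O2 (adjusted p = 7.82e-06) and by 0.15 at 24 h of NCS (adjusted p = 0.000564).

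**Figure D4:**
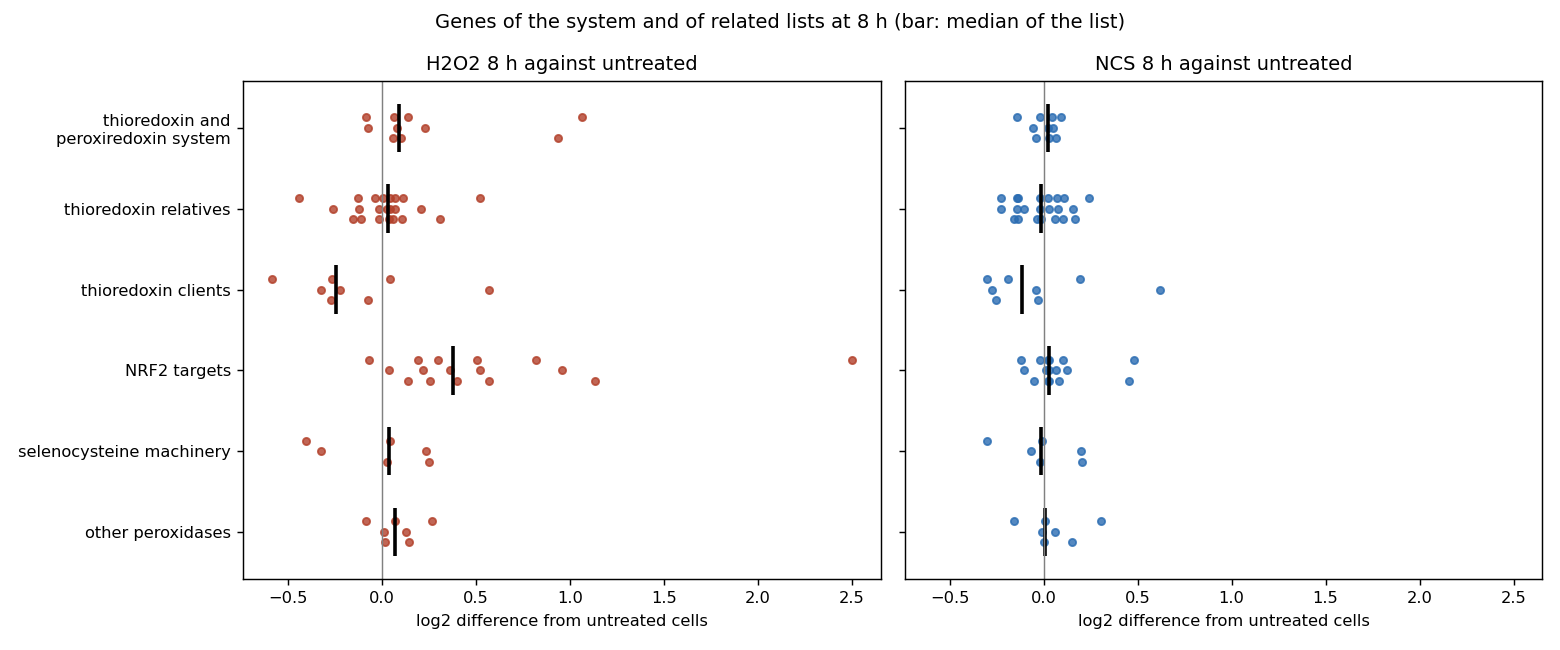
The log2 difference from untreated cells at 8 h is plotted for each gene of the system and of 5 related lists, in H2O2 (left) and NCS (right), with a black bar at the median of each list. After H2O2 the NRF2 targets had a median of 0.38 and the clients of thioredoxin -0.25, and after NCS every list had a median between -0.12 and 0.03.

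The genes whose course was most like that of a member were sought among 11671 genes with a mean value of at least 5, by the root mean square distance between changes from untreated cells over the 6 treated groups. For SRXN1 the nearest was GCLM (0.089), followed by ISL2 (0.11), ITPRIP (0.13), GRB10 (0.14) and TET3 (0.15). For TXNRD1 they were AGPAT9 (0.15), the amino acid transporters SLC1A4 (0.17) and SLC1A5 (0.20), TRIM16L (0.18) and GCLM (0.21). For PRDX5 they were PRAF2 (0.035), VAMP5, HTATIP2, TMEM219 and MEIS3, each within 0.050. GCLM changed by 0.50, 0.82 and 0.12 at 4, 8 and 24 h of H2O2, beside 0.49, 0.93 and 0.28 for SRXN1. The distances are descriptions over 6 group means that share the untreated libraries.

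Several members have neighbours whose reads could be confused with theirs. In GENCODE release 29, exons of AL121758.1, a protein-coding gene, overlap those of SRXN1 on the same strand, and exons of MMACHC and of the antisense gene AC018761.2 overlap those of PRDX1 and PRDX2 on the opposite strand. AL121758.1 and AC018761.2 are not listed in the table, and how reads shared with SRXN1 and PRDX2 were assigned is not stated. By contrast, the spans of EID3 and HOOK2 overlap those of TXNRD1 and PRDX2 on the same strand without overlapping exons. MMACHC fell by 0.43 at 4 h and 0.52 at 8 h of H2O2, when PRDX1 rose. It also fell where PRDX1 was not called, by 0.34 at 24 h of H2O2 (adjusted p = 0.000281). The falls at 4 and 24 h of NCS were 0.28 (adjusted p = 0.00492) and 0.38 (adjusted p = 8.06e-05). EID3 differed by 0.11 at 4 h (adjusted p = 0.218) and fell by 0.23 at 8 h of H2O2 (adjusted p = 0.00914), when TXNRD1 rose. HOOK2 differed by 0.05 at 4 h of H2O2 (adjusted p = 0.527), when PRDX2 rose, and rose by 0.40 at 24 h of NCS (adjusted p = 8.53e-06). HOOK2 also rose by 0.38 at 24 h of H2O2 (adjusted p = 1.35e-05), when PRDX2 was not called. By name, 7 pseudogenes of TXN, 4 of PRDX2, 4 of PRDX3, 1 of PRDX1 and 1 of PRDX4 are annotated, and 0 of these are listed in the table. How reads shared with them were assigned is not stated, so the values of these 5 genes are uncertain to that extent.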

How the data were processed

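RNA-seq libraries of hTERT-HPNE cells were made by the authors with a stranded mRNA kit. Reads were aligned with HISAT2, counted with htseq-count and transformed with DESeq2 by the authors; hg19 is the build in the submitters' processing notes, and versions, annotation and strand setting are not given in the sources used here. The deposited log2 values are rLog values of 23368 genes in 21 libraries, from -2.31 to 20.3; counts were not used here, so limma took the place of the count test the authors describe, and depth is unknown. No per-sample column was left unassigned.

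Values were used as deposited. The 3674 genes at 0 in every library were left out, and 19694 genes were fitted in limma 3.58.1 (R 4.3.3), 7 groups in 1 fit with a mean-variance trend, with Benjamini-Hochberg adjustment over all genes. There were 9 comparisons of groups, 4 time steps and 2 interactions. Permutation of 3 against 3 libraries cannot give a two-sided p below 0.1. The fit was tested on simulated data.

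Members and lists were chosen with earlier results of these data known. List genes could be named if they passed the test with an absolute log2 difference over 0.5 in any of the 9 comparisons. Like genes were the 5 nearest for each of the 3 members with the widest range. Other named genes overlap a member, apart from SEPHS2, EEFSEC and SECISBP2, which were named beside SEPHS1. AKR1C1, TXNDC5 and GPX2 were named for their low values. Markers and motifs were fixed lists, and protein motifs were not analysed here. Promoter windows are from RefSeq (GRCh38.p14), and overlaps were read by name from GENCODE 29. Positions in hg19 were not used here. Replicates are described as biological by the labels; same-numbered libraries of compared groups had correlated deviations between -0.113 and 0.213, and in 0 comparisons did all pairs exceed 0.1, so replicate numbers were not taken as pairs. Alternatives were other scalings, filters and fits, a replicate block, a threshold of 0.01, and each library left out. Python 3.11.15, pandas 2.3.3 and matplotlib 3.10.9 were used.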

Additional observations from a re-analysis of the deposited data

Results flagged for a closer look

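The results below were singled out because the H2O2 minus NCS difference itself changed with time, tested in limma as an interaction over all 19694 genes. From 4 to 8 h the difference of TXNRD1 grew by 0.87 (adjusted p = 1.44e-07) and that of SRXN1 by 0.59 (adjusted p = 0.000102). Over the same interval the changes of PRDX3 and PRDX4 were -0.13 (adjusted p = 0.0153) and -0.10 (adjusted p = 0.0284). The call of PRDX3 was lost when library medians were aligned (adjusted p = 0.0571). That of PRDX4 was lost with aligned medians, when only the groups compared were fitted, and without any 1 of H2O2 4 h replicate 2, H2O2 8 h replicate 2, NCS 4 h replicate 2 and NCS 8 h replicate 3 (adjusted p up to 0.151).

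From 4 to 24 h the change was 0.37 for TXNRD1 (adjusted p = 0.000705), the only member called higher over both intervals in the fit of all groups as deposited. It was -0.23 for PRDX4 (adjusted p = 4.17e-05), -0.22 for PRDX5 (adjusted p = 0.000182), -0.15 for PRDX2 (adjusted p = 0.00514) and -0.14 for PRDX3 (adjusted p = 0.00609). The call of PRDX3 was lost under quantile normalization (adjusted p = 0.065), and the other 4 were kept in every alternative tried.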

How the results depend on the processing

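Of 78 calls of the 10 genes over 15 comparisons, 56 were kept in every other scaling, filter and fit and with each library left out, and 0 changed sign. Those of TXN, TXNRD1 and SRXN1 against untreated cells and between the treatments were all among the kept. The cause of the changes below was not tested. With only the groups compared fitted, the members passing numbered 4 at 8 h of H2O2 against untreated cells (8 with all groups), 0 at 4 h of NCS (1), 2 at 8 h of NCS (1) and 1 from 4 to 8 h of NCS (0). With library medians aligned they numbered 0 at 4 h and 2 at 8 h of NCS, 3 from 4 to 8 h of H2O2 (5), 1 from 4 to 8 h of NCS, and 2 for the change of the H2O2 minus NCS difference from 4 to 8 h (4). Under quantile normalization they numbered 2 at 4 h and 5 at 8 h of NCS. With genes of a mean value of at least 5 they numbered 2 at 8 h of NCS and 1 from 4 to 8 h of NCS. At an adjusted p under 0.01 they numbered 5 at 8 h of H2O2, 0 at 4 and at 8 h of NCS, and 2 for the change from 4 to 8 h.

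Changes of sign were limited to differences that did not pass the test. With library medians aligned, PRDX1 at 24 h of H2O2 was -0.0096, TXN from 8 to 24 h of H2O2 -0.0055 and the SRXN1 change from 4 to 24 h -0.013. Under quantile normalization, TXN2 was 0.0084 at 4 h and 0.00057 at 24 h of H2O2, TXN 0.032 and SRXN1 0.0012 at 8 h of NCS, and PRDX1 0.0085 for H2O2 minus NCS at 24 h. With each library left out in turn, 17 calls were lost in at least 1 case and 14 of 72 uncalled differences were called. The members passing numbered 5 to 9 at 8 h of H2O2 (5 without untreated replicate 1), 0 to 1 at 4 h of NCS (0 without any 1 of untreated replicates 1 and 2 and NCS 4 h replicates 1 and 2), and 0 to 2 at 8 h of NCS (0 without NCS 8 h replicate 1, 2 without untreated replicate 2). The difference ran from -0.024 to 0.036 for PRDX1 at 24 h of H2O2, from -0.074 to 0.0076 for SRXN1 at 8 h of NCS, from -0.021 to 0.038 for TXN from 8 to 24 h of H2O2, and from -0.023 to 0.036 for the SRXN1 change from 4 to 24 h.

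Replicate numbers were used as a replicate block in 1 alternative. The labels give only a shared number, and whether it marks a batch was not tested. Of 21 libraries, 12 had deviations that correlated best with a library of their own number. The mean correlation of same-numbered pairs was lowest for NCS 4 h against untreated cells (-0.063, and 0.031 for other pairs). It was highest for H2O2 against NCS at 8 h (0.14, and -0.070 for other pairs). The block changed 5 of 150 calls or non-calls: PRDX3 at 4 h of H2O2 was 0.068 (adjusted p = 0.0533), and PRDX6 against NCS at 4 h (0.063) and 8 h (0.055), PRDX6 from 8 to 24 h of NCS (0.066) and the PRDX1 change from 4 to 24 h (-0.12) were called. Depth is unknown, and shrinkage of the rLog values makes differences smaller than in counts.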
